A study of Drosophila melanogaster with 13 samples.

Results

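The genes described here are the nuclear respiratory chain and ATP synthase subunits of adult Drosophila heads. Members were the genes whose symbol began with ND-, COX, UQCR-, ATPsyn, Sdh or Cyt-c in the annotation of the array, taken only from probe sets with a single symbol, and symbols ending in L were left out as likely testis paralogs. A probe set is the group of short probes that measures a transcript on an Affymetrix array, and the brightest probe set stood for each gene. This gave 56 genes of 11981 genes with such a probe set: 28 of complex I, 4 of complex II, 5 of complex III, 9 of complex IV and 10 of complex V. Of these, 51 are subunits, 4 are paralogs that the rule kept (COX6AL2, COX7AL2, ND-51L1 and ND-51L2) and 1, Sdhaf3, is an assembly factor. The symbol rule left out 19 genes ending in L, among them ND-MNLL, a complex I subunit and no testis copy. No probe set was named for a mitochondrially encoded subunit, so all values below are of nuclear genes.

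The proteins of oxidative phosphorylation sit in the inner mitochondrial membrane and supply most of the ATP of neurons, photoreceptors and muscle. Complex I takes electrons from NADH and complex II takes them from succinate, complex III passes them on to cytochrome c, complex IV hands them to oxygen, and complex V, the ATP synthase, uses the proton gradient that builds up to make ATP. Most subunits are encoded in the nucleus and a few in mitochondrial DNA, and many Drosophila subunit genes have a second copy that is expressed mainly in testis.

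RNA of adult fly heads was compared between mutants of a pair of histone methyltransferases, egg (the SETDB1 homolog) and Su(var)3-9, both of which methylate lysine 9 of histone H3, and a control. The groups were an egg mutant, yw; egg235/CyO, which is heterozygous for the egg allele and whose heads are called egg heads below; a Su(var)3-9 mutant, yw; +/CyO; Su(var)3-906; a double mutant, yw; egg235/CyO; Su(var)3-906; and the control, yw; +/CyO. All 4 genotypes carried yw and the CyO balancer chromosome, and each had 3 biological replicates, with 1 array per replicate; the age and sex of the flies are not given in the sources used here. The RNA of 1 control replicate was also hybridised a second time, and that array was not used here. The labels were not checked against egg and Su(var)3-9 themselves, since the annotation used here named no probe set for either gene.

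Values were the authors' deposited log2 expression, in which a difference of -1 is a halving of the signal; changes are given as the mutant minus the control, with the standard error of the fit. Array medians over all probe sets lay between 5.855 and 5.909 in egg heads, 5.709 and 5.774 in Su(var)3-9 heads and 5.721 and 5.794 in double mutant heads, against 6.082 to 6.143 in the control. The control arrays therefore had higher medians than all 9 mutant arrays, although probe set by probe set more were higher than lower in each mutant. The number of arrays limits the precision: with 3 per group, the median standard error of a change was 0.07 over the 56 genes.

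Compared with the control, the subunit genes were lower in each of the 3 mutants, by a modest and similar amount on the deposited scale. In RNA of whole heads, fewer cells of a type and less RNA per cell cannot be told apart. In egg heads 51 of 56 genes were lower and none higher at an adjusted p under 0.05 (limma with Benjamini-Hochberg adjustment over all 18769 probe sets), where 18.9% of all probe sets were called lower and 32% higher. In Su(var)3-9 heads 51 of 56 were lower and 2 higher, against 17.3% of probe sets called lower and 44.4% called higher. In double mutant heads 50 of 56 were lower and none higher, against 17.3% of probe sets called lower and 40.4% called higher. The median change of the 56 genes was -0.42 in egg heads, a difference of -25.1% in signal; it was -0.40 (-24.1%) in Su(var)3-9 heads and -0.33 (-20.6%) in double mutant heads. The middle of the distribution was narrow, with quartiles of -0.49 and -0.33 in egg heads, -0.48 and -0.32 in Su(var)3-9 heads, and -0.40 and -0.26 in double mutant heads. Over all probe sets the median change had the opposite sign, at 0.09, 0.21 and 0.18 in the egg, Su(var)3-9 and double mutants. Leaving out any 1 array kept the number of genes called lower between 48 and 51 in egg heads, 49 and 51 in Su(var)3-9 heads and 45 and 50 in double mutant heads. At an unadjusted p under 0.05, 0 genes were higher in egg heads and 2 in double mutant heads, and 3 genes had a change above 0 in each mutant.

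For 50 of the 56 genes (89.3%), every one of the 9 mutant arrays was below every control array; over all probe sets this held for 15%. The share was no higher in bright probe sets: among the 1610 probe sets at least as bright as ND-13B, the dimmest of the 49 brightly measured members, 12.2% had all mutant arrays below the control. In that bright set, 21.4% were called lower in egg heads, 14.9% in Su(var)3-9 heads and 14.2% in double mutant heads, and the median changes were 0.19, 0.18 and 0.22. The split into 49 bright and 7 dim members (COX6AL2, ND-51L1, ND-51L2, ND-B8, ND-B12, Sdhaf3 and UQCR-11) was made after the values were seen. No filter on signal was used, and 54 of the 56 members lay above the 40th percentile of mean signal.

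**Figure D1:**
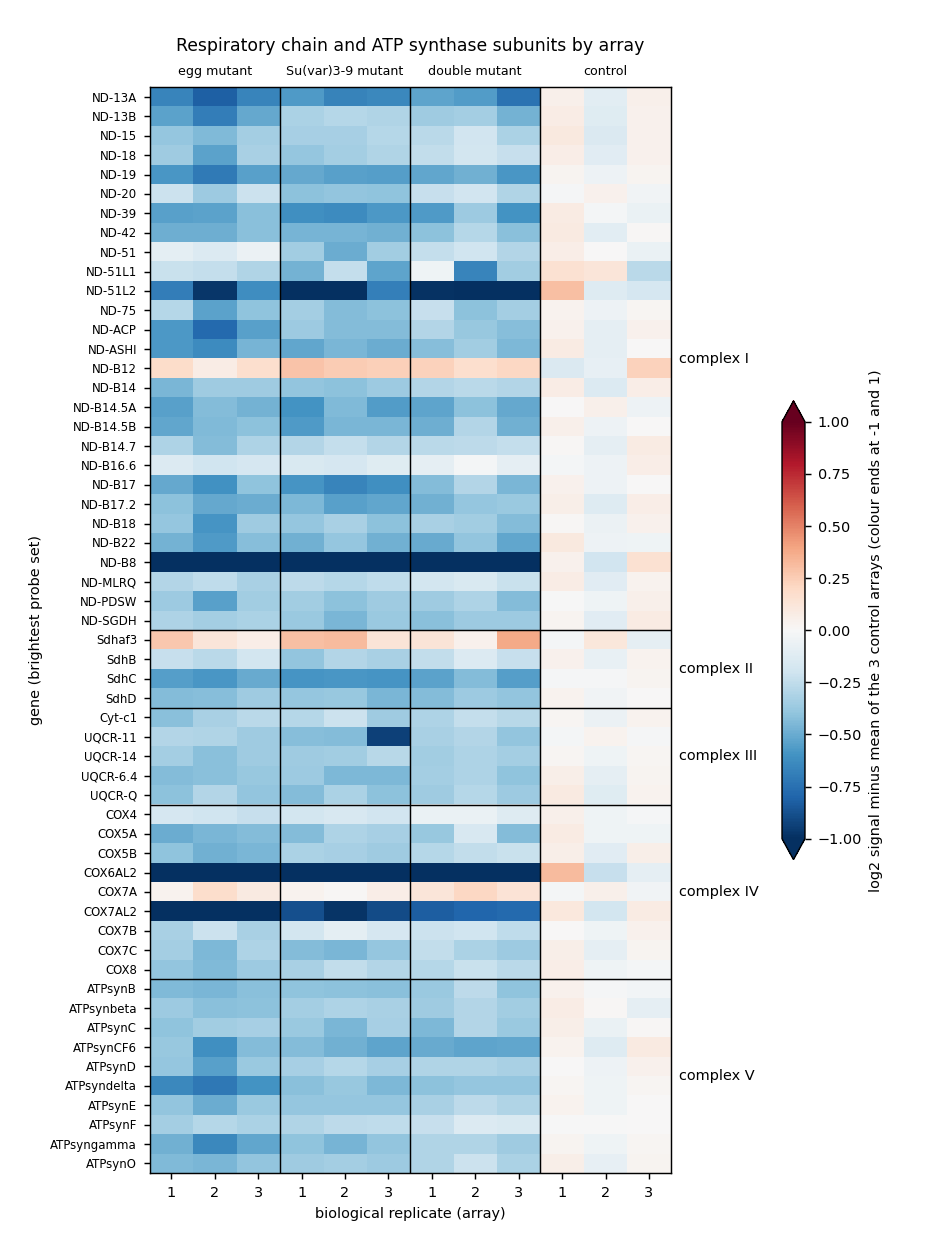
Log2 signal of each of the 56 genes (rows, grouped by complex) on each of the 12 arrays (columns, by group and biological replicate), as the difference from the mean of the 3 control arrays. The mutant columns are blue for nearly every gene; COX7A, ND-B12 and Sdhaf3 are pale red, and COX6AL2, ND-B8, COX7AL2 and ND-51L2 are darkest. Values are on the deposited scale; with arrays centred on their own medians the double mutant's median change was 0.02.

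How far these changes read as a fall depended on the scaling of the arrays, because the medians of the control arrays were higher. When each array was centred on its own median, 32 genes were lower and 3 higher in egg heads, 9 lower and 6 higher in Su(var)3-9 heads, and 7 lower and 7 higher in double mutant heads, with median changes of -0.19, -0.03 and 0.02. The same centring raised the median change of all probe sets to 0.32, 0.58 and 0.54. After it 14.4%, 12.2% and 12.2% of all probe sets were called lower and 59.1%, 80.4% and 79.1% higher, in the same mutant order. The double mutant's count called lower was near that share. Under cyclic loess, which fits away intensity-dependent differences between arrays, 53 genes were lower and none higher in each mutant. The median changes were -0.59, -0.53 and -0.48. Of all probe sets 27.7%, 25.9% and 26.7% were then called lower and 16.8%, 16.4% and 15.9% higher. The median change of the subunit genes minus that of all probe sets was -0.51, -0.61 and -0.52 on the deposited scale and -0.58, -0.53 and -0.48 after loess, each in the order egg, Su(var)3-9 and double mutant. Centring shifts all probe sets of an array alike, so it leaves this difference as it was and gives no further check of it. Of all called probe sets, 62.8%, 71.9% and 70.1% were higher on the deposited scale in the egg, Su(var)3-9 and double mutants, against 80.4%, 86.8% and 86.6% after centring and 37.8%, 38.7% and 37.3% after loess.

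**Figure D2:**
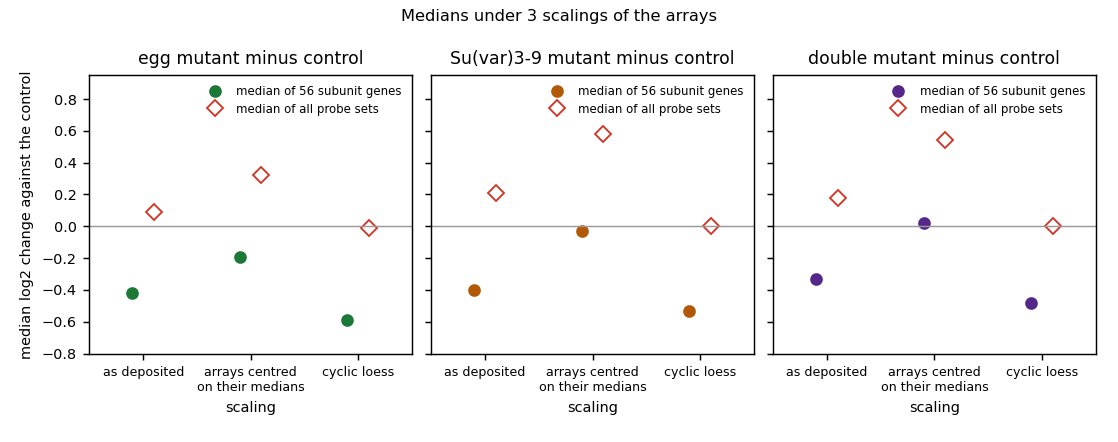
Median log2 change against the control of the 56 subunit genes (filled circles) and of all probe sets (open diamonds) under 3 scalings of the arrays, 1 panel per mutant. The circle lies below the diamond in the deposited and loess columns, and centring moves both alike, so the distance between them there is fixed by construction. After centring the circle is at -0.19 in egg heads, -0.03 in Su(var)3-9 heads and 0.02 in double mutant heads.

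Complex I, the entry point of NADH electrons, had the most members. Of its 28 genes, 25 were lower in egg heads, 26 in Su(var)3-9 heads and 25 in double mutant heads, with medians of -0.45, -0.41 and -0.37 on the deposited scale. The peripheral arm, which carries the flavin and the iron-sulfur clusters, and the membrane arm, which pumps protons, moved alike: the medians of the 13 peripheral-arm genes were -0.47, -0.42 and -0.39, and those of the 13 membrane-arm genes -0.44, -0.40 and -0.37. The peripheral-arm genes include the dim paralogs ND-51L1 and ND-51L2 and the dim ND-B8, and the membrane-arm genes the dim ND-B12. ND-ACP, placed in both arms, and ND-MLRQ, placed in neither, were left out of the arm medians. ND-75 is the homolog of NDUFS1 and holds iron-sulfur clusters. ND-75 gave log2 signals of 11.26, 11.01 and 11.14 on the egg arrays, 11.20, 11.11 and 11.13 on the Su(var)3-9 arrays and 11.31, 11.13 and 11.20 on the double mutant arrays, against 11.58, 11.49 and 11.56 on the control arrays. All 9 mutant arrays were below the 3 control arrays, though centring arrays on their medians turned the double mutant's change to 0.03. For ND-75 the log2 change was -0.41 ± 0.08 in egg heads (adjusted p = 0.000815), -0.40 ± 0.08 in Su(var)3-9 heads (adjusted p = 0.00102) and -0.33 ± 0.08 in double mutant heads (adjusted p = 0.00361). ND-51 is the homolog of NDUFV1, which binds NADH and the flavin. ND-51 gave log2 signals of 12.04, 12 and 12.08 on the egg arrays, 11.79, 11.64 and 11.79 on the Su(var)3-9 arrays and 11.90, 11.94 and 11.85 on the double mutant arrays, against 12.21, 12.14 and 12.07 on the control arrays. The egg mutant arrays overlapped the control, whereas the Su(var)3-9 and double mutant arrays lay below it, the double mutant's change turning to 0.11 after centring. For ND-51 the log2 change was -0.10 ± 0.07 in egg heads (adjusted p = 0.281), -0.40 ± 0.07 in Su(var)3-9 heads (adjusted p = 0.000399) and -0.24 ± 0.07 in double mutant heads (adjusted p = 0.0109). ND-13B, the homolog of NDUFA5, was the gene whose egg mutant value lay farthest below its Su(var)3-9 mutant value. ND-13B gave log2 signals of 9.66, 9.50 and 9.68 on the egg arrays, 9.88, 9.91 and 9.89 on the Su(var)3-9 arrays and 9.84, 9.85 and 9.72 on the double mutant arrays, against 10.27, 10.07 and 10.24 on the control arrays. Its egg mutant arrays were the lowest, and after centring its change in Su(var)3-9 heads was 0.07. For ND-13B the log2 change was -0.58 ± 0.08 in egg heads (adjusted p = 4.89e-05), -0.30 ± 0.08 in Su(var)3-9 heads (adjusted p = 0.00594) and -0.39 ± 0.08 in double mutant heads (adjusted p = 0.00108).

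ND-B8, the homolog of NDUFA2, had the largest change of complex I, but its probe set was dim. ND-B8 gave log2 signals of 4.10, 4.21 and 4.18 on the egg arrays, 3.92, 3.87 and 4.06 on the Su(var)3-9 arrays and 4.09, 4.25 and 4.03 on the double mutant arrays, against 5.85, 5.62 and 5.96 on the control arrays. The 9 mutant arrays were all far below the 3 control arrays and close to each other. For ND-B8 the log2 change was -1.65 ± 0.10 in egg heads (adjusted p = 1.13e-07), -1.87 ± 0.10 in Su(var)3-9 heads (adjusted p = 1.09e-08) and -1.69 ± 0.10 in double mutant heads (adjusted p = 2.92e-08). ND-B12, the homolog of NDUFB3, was one of 2 genes called higher, in Su(var)3-9 heads. ND-B12 gave log2 signals of 6.68, 6.57 and 6.66 on the egg arrays, 6.78, 6.75 and 6.73 on the Su(var)3-9 arrays and 6.72, 6.66 and 6.70 on the double mutant arrays, against 6.35, 6.41 and 6.72 on the control arrays. The Su(var)3-9 mutant arrays were above the control arrays in this scaling, with a change of -0.07 under loess, and the other mutants overlapped the control. For ND-B12 the log2 change was 0.14 ± 0.09 in egg heads (adjusted p = 0.218), 0.26 ± 0.09 in Su(var)3-9 heads (adjusted p = 0.0238) and 0.20 ± 0.09 in double mutant heads (adjusted p = 0.0732). Without control replicate 1 it no longer passed in Su(var)3-9 heads (0.19, adjusted p = 0.103), nor without control replicate 2 (0.22, adjusted p = 0.0717) or Su(var)3-9 mutant replicate 1 (0.25, adjusted p = 0.0631). Without control replicate 3, ND-B12 passed as higher in egg heads (0.25, adjusted p = 0.0104) and in double mutant heads too (0.31, adjusted p = 0.00313). The paralogs of ND-51 were dim as well. ND-51L2 gave log2 signals of 5.37, 5.09 and 5.44 on the egg arrays, 4.97, 5 and 5.38 on the Su(var)3-9 arrays and 5.07, 4.81 and 5.01 on the double mutant arrays, against 6.36, 5.93 and 5.89 on the control arrays. All mutant arrays of ND-51L2 were below the control. For ND-51L2 the log2 change was -0.76 ± 0.15 in egg heads (adjusted p = 0.00087), -0.94 ± 0.15 in Su(var)3-9 heads (adjusted p = 0.000172) and -1.10 ± 0.15 in double mutant heads (adjusted p = 5.02e-05). ND-51L1 gave log2 signals of 5.16, 5.14 and 5.08 on the egg arrays, 4.91, 5.14 and 4.85 on the Su(var)3-9 arrays and 5.34, 4.72 and 5.03 on the double mutant arrays, against 5.53, 5.5 and 5.11 on the control arrays. ND-51L1 overlapped between groups. For ND-51L1 the log2 change was -0.25 ± 0.15 in egg heads (adjusted p = 0.193), -0.42 ± 0.15 in Su(var)3-9 heads (adjusted p = 0.0304) and -0.35 ± 0.15 in double mutant heads (adjusted p = 0.0651). Its call in Su(var)3-9 heads was lost without control replicate 1 or 2 or Su(var)3-9 mutant replicate 1 or 3, with changes of -0.34, -0.36, -0.39 and -0.36. In double mutant heads it passed without control replicate 3 (-0.48, adjusted p = 0.0194) or double mutant replicate 1 (-0.50, adjusted p = 0.0119).

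Of the remaining complex I genes, ND-B16.6, the homolog of NDUFA13, passed in egg heads alone (-0.17, adjusted p = 0.0387), against -0.15 (adjusted p = 0.0566) in Su(var)3-9 heads and -0.07 (adjusted p = 0.379) in double mutant heads. Among genes chosen after their values were seen, ND-13A, the homolog of NDUFS6, had one of the larger changes of a bright complex I gene, at -0.71, -0.62 and -0.60 in the egg, Su(var)3-9 and double mutants. ND-19, the homolog of NDUFA8, was at -0.61, -0.54 and -0.53 in the same mutants.

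Complex II, succinate dehydrogenase, also belongs to the citric acid cycle. Its 3 measured subunits, SdhB, SdhC and SdhD, were lower in every mutant, and the assembly factor Sdhaf3 was not; the medians of the 4 genes were -0.32, -0.38 and -0.30. SdhB is the iron-sulfur subunit. SdhB gave log2 signals of 11.63, 11.59 and 11.67 on the egg arrays, 11.46, 11.56 and 11.53 on the Su(var)3-9 arrays and 11.61, 11.72 and 11.63 on the double mutant arrays, against 11.90, 11.78 and 11.89 on the control arrays. All mutant arrays were below the control, but after centring the change was 0.03 in Su(var)3-9 heads and 0.15 in double mutant heads. For SdhB the log2 change was -0.23 ± 0.07 in egg heads (adjusted p = 0.0129), -0.34 ± 0.07 in Su(var)3-9 heads (adjusted p = 0.000866) and -0.20 ± 0.07 in double mutant heads (adjusted p = 0.0206). In double mutant heads SdhB no longer passed after leaving out control replicate 1 (-0.18, adjusted p = 0.0674) or replicate 3 (-0.19, adjusted p = 0.0524) or double mutant replicate 1 (-0.19, adjusted p = 0.0682) or 3 (-0.19, adjusted p = 0.0622). SdhC, a membrane anchor, changed most in the complex. SdhC gave log2 signals of 11.76, 11.73 and 11.81 on the egg arrays, 11.72, 11.73 and 11.72 on the Su(var)3-9 arrays and 11.78, 11.88 and 11.76 on the double mutant arrays, against 12.30, 12.30 and 12.34 on the control arrays. The gap between mutant and control arrays was wide against the spread within each group. For SdhC the log2 change was -0.55 ± 0.06 in egg heads (adjusted p = 1.3e-05), -0.59 ± 0.06 in Su(var)3-9 heads (adjusted p = 6.25e-06) and -0.51 ± 0.06 in double mutant heads (adjusted p = 2.46e-05). Sdhaf3 helps to assemble the iron-sulfur subunit, and its probe set was dim. Sdhaf3 gave log2 signals of 7.23, 7.08 and 7.03 on the egg arrays, 7.26, 7.28 and 7.09 on the Su(var)3-9 arrays and 7.09, 7 and 7.34 on the double mutant arrays, against 6.94, 7.07 and 6.87 on the control arrays. The Su(var)3-9 mutant arrays lay just above the control in this scaling, with a change of -0.08 under loess. For Sdhaf3 the log2 change was 0.16 ± 0.10 in egg heads (adjusted p = 0.23), 0.25 ± 0.10 in Su(var)3-9 heads (adjusted p = 0.0476) and 0.19 ± 0.10 in double mutant heads (adjusted p = 0.131). That call in Su(var)3-9 heads was lost without any of 8 arrays, namely Su(var)3-9 mutant replicates 1 and 2, control replicates 1 and 3, double mutant replicate 1 and egg mutant replicates 1, 2 and 3, with changes of 0.21 to 0.25.

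Complex III carries electrons to cytochrome c, and all 5 of its measured genes were lower in every mutant on the deposited scale, with medians of -0.37, -0.39 and -0.33. Cyt-c1 is the subunit that hands electrons to cytochrome c. Cyt-c1 gave log2 signals of 12.63, 12.72 and 12.78 on the egg arrays, 12.76, 12.83 and 12.69 on the Su(var)3-9 arrays and 12.74, 12.81 and 12.77 on the double mutant arrays, against 13.07, 12.99 and 13.08 on the control arrays. All mutant arrays were below the control, while centring gave changes of 0.09 in Su(var)3-9 heads and 0.08 in double mutant heads. For Cyt-c1 the log2 change was -0.34 ± 0.07 in egg heads (adjusted p = 0.00125), -0.29 ± 0.07 in Su(var)3-9 heads (adjusted p = 0.00369) and -0.27 ± 0.07 in double mutant heads (adjusted p = 0.00507). UQCR-11, the hinge protein, had the largest change of the complex in Su(var)3-9 heads and a dim probe set; UQCR-6.4 changed more in egg heads, at -0.41, and in double mutant heads, at -0.35. UQCR-11 gave log2 signals of 6.05, 6.04 and 5.99 on the egg arrays, 5.92, 5.91 and 5.41 on the Su(var)3-9 arrays and 6.02, 6.05 and 5.95 on the double mutant arrays, against 6.32, 6.38 and 6.33 on the control arrays. In Su(var)3-9 heads replicate 3 was well below the other replicates, and centring turned the double mutant's change to 0.02. For UQCR-11 the log2 change was -0.31 ± 0.12 in egg heads (adjusted p = 0.0382), -0.59 ± 0.12 in Su(var)3-9 heads (adjusted p = 0.000799) and -0.34 ± 0.12 in double mutant heads (adjusted p = 0.0253). The egg mutant's call was lost without any single control or egg mutant array, with changes of -0.32 to -0.30. The double mutant's call was lost without control replicate 2 or 3 or double mutant replicate 1 or 3, with changes of -0.34 to -0.31. UQCR-14, UQCR-6.4 and UQCR-Q, the homologs of UQCRB, UQCR11 and UQCRQ, were at -0.37, -0.41 and -0.37 in egg heads.

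Complex IV, cytochrome c oxidase, hands electrons to oxygen. Of its 9 genes, 8 were lower in egg heads, 7 in Su(var)3-9 heads and 7 in double mutant heads, with medians of -0.40, -0.33 and -0.26. COX4 is a regulatory subunit. COX4 gave log2 signals of 12.95, 12.92 and 12.89 on the egg arrays, 12.94, 12.96 and 12.93 on the Su(var)3-9 arrays and 13.05, 13.05 and 12.99 on the double mutant arrays, against 13.17, 13.08 and 13.11 on the control arrays. All mutant arrays were just below the control on this scale, but centring gave positive changes of 0.03, 0.20 and 0.27 in the egg, Su(var)3-9 and double mutants. For COX4 the log2 change was -0.20 ± 0.06 in egg heads (adjusted p = 0.0156), -0.17 ± 0.06 in Su(var)3-9 heads (adjusted p = 0.0275) and -0.09 ± 0.06 in double mutant heads (adjusted p = 0.239). COX4 no longer passed in egg heads after leaving out control replicate 1 (-0.18, adjusted p = 0.0584) or egg mutant replicate 3 (-0.19, adjusted p = 0.0608), and in Su(var)3-9 heads after leaving out control replicate 1 (-0.15, adjusted p = 0.0914) or Su(var)3-9 mutant replicate 1 or 3 (-0.17 both). COX5A, another nuclear subunit, differed more. COX5A gave log2 signals of 12.59, 12.63 and 12.66 on the egg arrays, 12.66, 12.78 and 12.76 on the Su(var)3-9 arrays and 12.71, 12.93 and 12.66 on the double mutant arrays, against 13.17, 13.05 and 13.05 on the control arrays. No mutant array reached the control, and after centring the changes were 0.01 in Su(var)3-9 heads and 0.03 in double mutant heads. For COX5A the log2 change was -0.46 ± 0.08 in egg heads (adjusted p = 0.00037), -0.36 ± 0.08 in Su(var)3-9 heads (adjusted p = 0.00237) and -0.32 ± 0.08 in double mutant heads (adjusted p = 0.00474).

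COX7A and its paralog COX7AL2 went separate ways. COX7A gave log2 signals of 12.52, 12.66 and 12.58 on the egg arrays, 12.52, 12.50 and 12.55 on the Su(var)3-9 arrays and 12.61, 12.69 and 12.62 on the double mutant arrays, against 12.47, 12.54 and 12.45 on the control arrays. COX7A, a nuclear subunit and the gene of the complex that was low in no mutant, overlapped the control in every mutant but the double mutant, whose arrays were above it. For COX7A the log2 change was 0.10 ± 0.07 in egg heads (adjusted p = 0.265), 0.04 ± 0.07 in Su(var)3-9 heads (adjusted p = 0.639) and 0.15 ± 0.07 in double mutant heads (adjusted p = 0.0719). COX7AL2 gave log2 signals of 11.96, 11.80 and 11.96 on the egg arrays, 12.16, 12.06 and 12.14 on the Su(var)3-9 arrays and 12.21, 12.24 and 12.26 on the double mutant arrays, against 13.14, 12.85 and 13.12 on the control arrays. The paralog was lower in all 9 mutant arrays, with the egg mutant lowest. For COX7AL2 the log2 change was -1.13 ± 0.09 in egg heads (adjusted p = 5.17e-07), -0.92 ± 0.09 in Su(var)3-9 heads (adjusted p = 1.89e-06) and -0.80 ± 0.09 in double mutant heads (adjusted p = 6.79e-06). The other paralog, COX6AL2, is related to the subunit 6A gene levy and was the member with the largest fall in every mutant. COX6AL2 gave log2 signals of 4.63, 4.37 and 4.75 on the egg arrays, 3.96, 4.01 and 4.2 on the Su(var)3-9 arrays and 4.12, 4.15 and 3.81 on the double mutant arrays, against 7.38, 6.84 and 6.98 on the control arrays. The control arrays stood far above the mutant arrays, and the probe set was dim in the mutants. For COX6AL2 the log2 change was -2.48 ± 0.15 in egg heads (adjusted p = 1.11e-07), -3.01 ± 0.15 in Su(var)3-9 heads (adjusted p = 7.46e-09) and -3.04 ± 0.15 in double mutant heads (adjusted p = 1.07e-08). The genes ending in L that the symbol rule left out, ND-MNLL aside, ranged widely: COX4L, the lowest, was at -2.81, -4.79 and -4.21 in the egg, Su(var)3-9 and double mutants, and ATPsynepsilonL, the highest, at -0.31, 0.06 and -0.12.

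Complex V is the ATP synthase, and all 10 of its genes were lower in every mutant on the deposited scale, with medians of -0.44, -0.38 and -0.33. ATPsynbeta is the catalytic subunit. ATPsynbeta gave log2 signals of 13.73, 13.68 and 13.69 on the egg arrays, 13.76, 13.79 and 13.77 on the Su(var)3-9 arrays and 13.74, 13.80 and 13.75 on the double mutant arrays, against 14.17, 14.11 and 14.01 on the control arrays. All mutant arrays were below the control, and centring turned the changes to 0.05 in Su(var)3-9 heads and 0.03 in double mutant heads. For ATPsynbeta the log2 change was -0.40 ± 0.07 in egg heads (adjusted p = 0.00022), -0.32 ± 0.07 in Su(var)3-9 heads (adjusted p = 0.00105) and -0.33 ± 0.07 in double mutant heads (adjusted p = 0.000923). ATPsynC forms the proton-carrying ring of the rotor. ATPsynC gave log2 signals of 13.54, 13.59 and 13.61 on the egg arrays, 13.57, 13.48 and 13.61 on the Su(var)3-9 arrays and 13.49, 13.65 and 13.57 on the double mutant arrays, against 14, 13.87 and 13.95 on the control arrays. Groups of mutant arrays lay on top of each other, below the control. For ATPsynC the log2 change was -0.36 ± 0.07 in egg heads (adjusted p = 0.000945), -0.39 ± 0.07 in Su(var)3-9 heads (adjusted p = 0.000593) and -0.37 ± 0.07 in double mutant heads (adjusted p = 0.00083). ATPsyndelta, at the foot of the central shaft, had the largest change of the complex in egg heads, whereas ATPsynCF6 changed more in Su(var)3-9 heads, at -0.48, and in double mutant heads, at -0.51. ATPsyndelta gave log2 signals of 12.12, 12.05 and 12.17 on the egg arrays, 12.35, 12.39 and 12.32 on the Su(var)3-9 arrays and 12.36, 12.38 and 12.38 on the double mutant arrays, against 12.79, 12.72 and 12.79 on the control arrays. The egg mutant arrays were the lowest group, with no overlap with either of the other mutants. For ATPsyndelta the log2 change was -0.66 ± 0.06 in egg heads (adjusted p = 3.25e-06), -0.41 ± 0.06 in Su(var)3-9 heads (adjusted p = 0.000136) and -0.39 ± 0.06 in double mutant heads (adjusted p = 0.0002). The 4 genes of the peripheral stalk (ATPsynO, ATPsynB, ATPsynCF6 and ATPsynD) had medians of -0.44, -0.38 and -0.33.

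**Figure D3:**
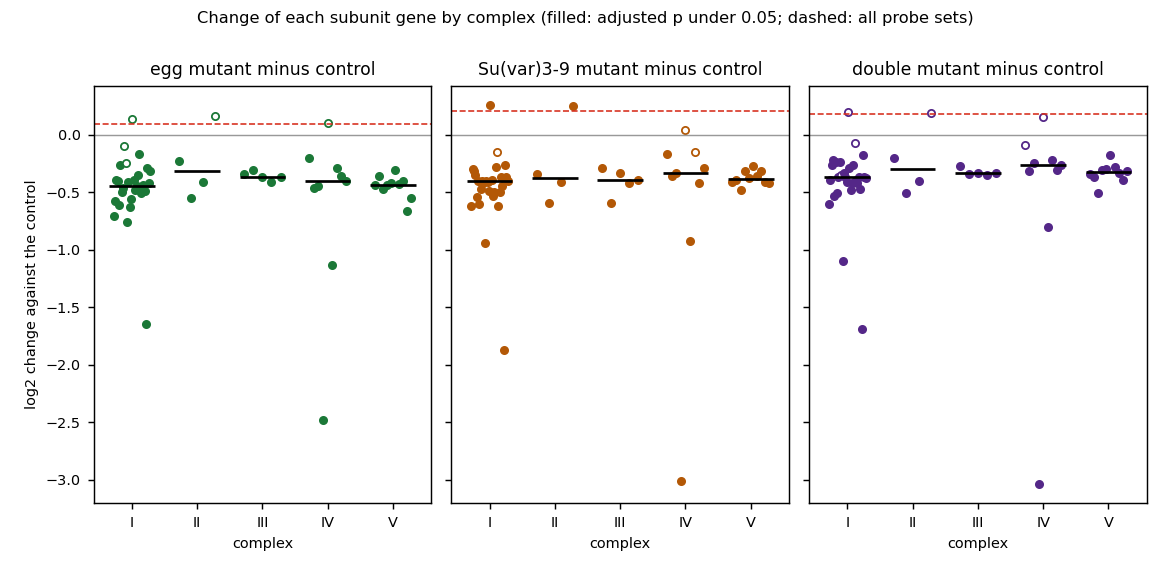
Log2 change of each of the 56 genes against the control by complex, for the egg, Su(var)3-9 and double mutants. Points are genes, filled where the adjusted p was under 0.05; black bars are the medians of a complex and the dashed line is the median of all probe sets. Medians of the 5 complexes lie between -0.45 and -0.26, below the dashed line, on the deposited scale; with arrays centred on their medians the median of the 56 genes was -0.19, -0.03 and 0.02.

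Members on every chromosome arm were lower. Over all probe sets 18.9%, 17.3% and 17.3% were called lower in the egg, Su(var)3-9 and double mutants, and 32%, 44.4% and 40.4% higher. Of 9 X-linked genes 9, 8 and 8 were lower in the egg, Su(var)3-9 and double mutants, and of the 12 genes on 2L 11, 12 and 11 were lower. The counts were 8, 9 and 8 of 10 on 2R, 12, 11 and 12 of 12 on 3L, and 10, 10 and 10 of 12 on 3R. ATPsynbeta is the single member on chromosome 4, the small chromosome on which egg is known to methylate histones; it was lower in each mutant, whereas of 65 measured genes of that chromosome 55, 50 and 58 were higher and 5, 7 and 6 lower.

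A gene's probe sets did not always read alike. Of the 56 genes 6 had more than 1 probe set. COX7C, a nuclear subunit of complex IV, was at -0.36, -0.42 and -0.31 in the egg, Su(var)3-9 and double mutants by its brightest probe set, and at -2.53, -3.29 and -3.20 by a dimmer probe set. COX7B was the gene whose probe sets passed with opposite signs: in Su(var)3-9 heads a dim probe set was at 0.32 (adjusted p = 0.0278), a second was at -0.42 (adjusted p = 9.41e-05), and the brightest was at -0.15 (adjusted p = 0.0687). For ATPsynbeta, ATPsyngamma, ND-ACP and ND-B17 the probe sets had the same sign in every mutant. In double mutant heads, though, the dimmer ATPsyngamma probe set did not pass (-0.15, adjusted p = 0.161). The dimmest ND-ACP probe set did not pass there either (-0.14, adjusted p = 0.111). Averaging the probe sets of each gene kept the 51, 53 and 50 calls against the control in the egg, Su(var)3-9 and double mutants, but raised the count lower between the double and egg mutants to 2 and the count higher between the egg and Su(var)3-9 mutants to 3.

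On the deposited scale few of these genes passed in comparisons between mutants. Between the double and the Su(var)3-9 mutant 0 of 56 genes passed with limma, where 5.17% of all probe sets did; 4 genes were higher and 0 lower at an unadjusted p under 0.05, and the median difference was 0.07. Between the double and the egg mutant 4 genes were higher and 1 lower, against 7.91% and 7.62% of probe sets. The count called higher was near the background. ATPsyndelta was 0.26 ± 0.06 higher in the double than in egg heads (adjusted p = 0.0147), and COX7AL2 0.33 ± 0.09 higher (adjusted p = 0.0224). ATPsyngamma, the central shaft of the ATP synthase, and ND-ACP, the mitochondrial acyl carrier protein, were the other genes called higher, by 0.22 and 0.26. The dimmer ATPsyngamma probe set was at 0.20 and did not pass (adjusted p = 0.152), whereas every ND-ACP probe set did. COX6AL2 was lower, at -0.56 ± 0.15 (adjusted p = 0.0212). These counts depended on single arrays: the number called higher was 1 without double mutant replicate 1, 2 or 3, 2 without egg mutant replicate 1 or Su(var)3-9 mutant replicate 1 or 3, and 0 without egg mutant replicate 2. The number called lower was 0 without double mutant replicate 3 or egg mutant replicate 1 or 3. With arrays centred on their medians 25 genes were higher and 1 lower, where 20.1% of all probe sets were called higher and 5.22% lower.

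Between the egg and the Su(var)3-9 mutant 2 genes were higher and 2 lower, against 13.4% and 13.9% of probe sets. ND-51 was 0.30 ± 0.07 higher in egg heads (adjusted p = 0.00743), and COX6AL2 0.53 ± 0.15 higher (adjusted p = 0.0182). ND-13B was lower in egg heads, at -0.28 (adjusted p = 0.0203), as was ATPsyndelta, at -0.24 ± 0.06 (adjusted p = 0.0146). The number called lower was 4 without control replicate 2, 1 without Su(var)3-9 mutant replicate 2 and 0 without egg mutant replicate 2, and the number called higher was 1 without egg mutant replicate 1 or 3 or Su(var)3-9 mutant replicate 2. After centring 25 genes were lower and 1 higher, where 35.3% of all probe sets were called lower and 8.38% higher. With the control arrays left out of the fit, a setting added after the values were seen, 5 genes were higher and 1 lower between the double and the egg mutant, 2 higher and 3 lower between the egg and the Su(var)3-9 mutant, and 0 passed between the double and the Su(var)3-9 mutant.

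**Figure D4:**
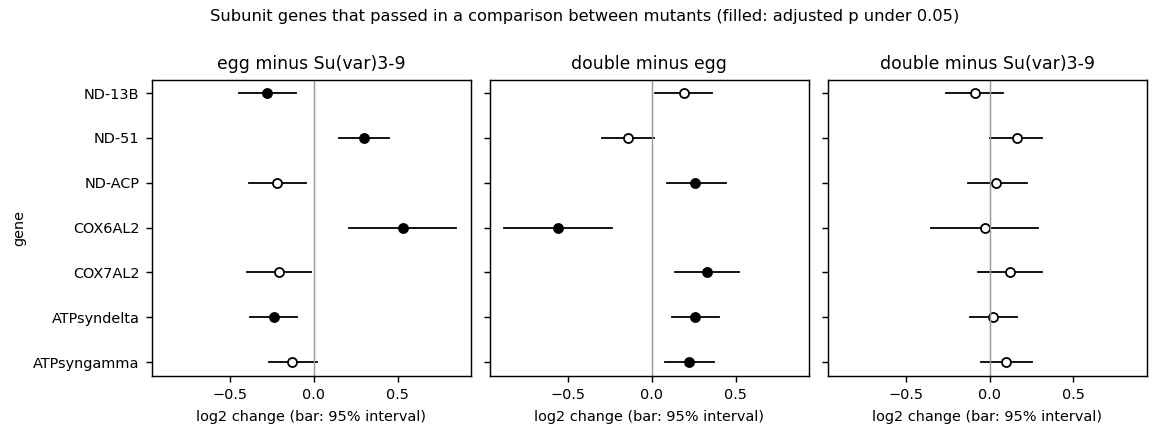
Log2 difference between mutants for the 7 genes that passed in at least 1 comparison between mutants, with bars for the 95% confidence interval and filled points where the adjusted p was under 0.05. Panels show egg minus Su(var)3-9, double minus egg and double minus Su(var)3-9 mutant; in the last, no point is filled. Differences are on the deposited scale.

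For most genes the change in double mutant heads was smaller than the summed changes of both single mutants on the log2 scale. The interaction, the egg mutation's effect in the Su(var)3-9 mutant background minus its effect in the control background, was above 0 and passed for 50 of 56 genes, against 15.8% of probe sets, and passed below 0 for none, against 24.9%; none was below 0 at an unadjusted p under 0.05 either. Its median was 0.48 over the 56 genes and -0.14 over all probe sets. ND-75 had an interaction of 0.48 ± 0.11 (adjusted p = 0.0048), ATPsynbeta of 0.39 ± 0.09 (adjusted p = 0.0047) and SdhC of 0.63 ± 0.09 (adjusted p = 0.000144). COX7A, which was not called in any mutant, was at 0.02 ± 0.09 (adjusted p = 0.906). The interaction and the comparisons with the control share the control arrays. With arrays centred on their medians 23 genes passed above 0 and 2 below, against 12.6% and 51.2% of all probe sets. Under cyclic loess 51 passed above 0 and 0 below, against 21.7% and 10.9%.

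Genes of the same complexes under other symbols, which the symbol rule did not reach, gave a further reading, though the list was drawn up with earlier results known. Of 6 measured (RFeSP, blw, cype, levy, ox and sun), 5, 5 and 4 were lower in the egg, Su(var)3-9 and double mutants and none higher. The shares of all probe sets called lower were 18.9%, 17.3% and 17.3%. RFeSP, the Rieske iron-sulfur protein of complex III, was at -0.53 ± 0.08, -0.48 ± 0.08 and -0.42 ± 0.08, and levy at -0.37, -0.45 and -0.31. The alpha subunit of the ATP synthase, blw, was at -0.19, -0.25 and -0.13, the last not passing (adjusted p = 0.0819). After centring 0, 2 and 3 of the 6 were higher and 1, 0 and 0 lower. Of all probe sets 59.1%, 80.4% and 79.1% were then called higher and 14.4%, 12.2% and 12.2% lower. Among the genes set aside, ND-MNLL was at -0.12 (adjusted p = 0.274), -0.29 (adjusted p = 0.0107) and -0.25 (adjusted p = 0.0222). Probe sets with several symbols were set aside too. That of ND-AGGG and CG40472 was at -0.06, -0.06 and 0.25, and passed with limma as higher in double mutant heads (adjusted p = 0.0239). That of ATPsynG and beat-Vb was at -0.35, -0.30 and -0.28, and that of COX6B and CG18809 at -0.19, -0.27 and -0.18, all passing as lower.

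Other mitochondrial genes did not move as one. The shares of all probe sets called lower were 18.9%, 17.3% and 17.3% in the egg, Su(var)3-9 and double mutants. Of 7 measured assembly factors of the respiratory chain, 2 were lower and none higher in egg heads, and 1 was lower and 2 higher in each of the Su(var)3-9 and double mutants. CIA30, a complex I assembly factor, was at -0.46, -0.26 and -0.25, and Surf1, a complex IV assembly factor, at 0.12, 0.50 and 0.39, of which the first did not pass (adjusted p = 0.196). Of 15 other genes of mitochondrial energy supply, 10, 11 and 9 were lower and 2, 1 and 3 higher. Idh3b, a subunit of isocitrate dehydrogenase, was at -0.25 ± 0.09 in egg heads, -1.53 ± 0.09 in Su(var)3-9 heads and -0.30 ± 0.09 in double mutant heads. The outer membrane channel porin was at 0.27, 0.18 and 0.27. Of 11 regulators of mitochondrial biogenesis, 6, 5 and 4 were higher and 1, 2 and 1 lower, where 32%, 44.4% and 40.4% of all probe sets were called higher, so the counts in Su(var)3-9 and double mutant heads were near the background. TFAM, which packages mitochondrial DNA, was at -0.32, -0.36 and -0.24, and ewg, the homolog of NRF1, at 0.75, 0.45 and 0.58. These list counts moved with the scaling. Loess left 1, 1 and 1 regulators higher and 3, 5 and 5 lower, against 16.8%, 16.4% and 15.9% of all probe sets higher and 27.7%, 25.9% and 26.7% lower. The egg mutant's count of lower regulators was then near the background. Centring left 7, 6 and 5 of the energy supply genes lower and 4, 4 and 5 higher. Of all probe sets 14.4%, 12.2% and 12.2% were lower after centring and 59.1%, 80.4% and 79.1% higher.

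Markers of some cell types also differed between these heads. The defining markers of neurons and photoreceptors were detected in every group. Of 8 neuronal markers all were higher in each mutant, and their median signal on an array was 10.69 to 10.74 in egg heads, 10.29 to 10.34 in Su(var)3-9 heads and 10.34 to 10.40 in double mutant heads, against 9.59 to 9.89 in the control. Over all probe sets 32%, 44.4% and 40.4% were called higher in the egg, Su(var)3-9 and double mutants. Of 9 photoreceptor markers 9, 4 and 7 were higher, with median changes of 0.79, 0.17 and 0.44; the Su(var)3-9 count was near the background. Their array medians were 13.13 to 13.22, 12.60 to 12.72 and 12.88 to 12.89 in the egg, Su(var)3-9 and double mutants, against 12.33 to 12.75 in the control. Of 8 glial markers 7, 5 and 6 were higher and 0, 1 and 0 lower, with array medians of 9.62 to 9.79, 9.90 to 9.97 and 9.87 to 9.94 in the 3 mutants, against 9.36 to 9.48 in the control. Of 7 head fat body markers 2, 5 and 5 were higher and 2, 0 and 0 lower, with array medians of 8.10 to 8.63, 11.72 to 11.89 and 11.27 to 11.38 in the 3 mutants, against 9.10 to 10.31 in the control.

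Most muscle, testis and gut markers were lower in the mutants on the deposited scale, as most subunit genes were. Over all probe sets 18.9%, 17.3% and 17.3% were called lower in the egg, Su(var)3-9 and double mutants. Of 15 flight and body muscle markers 11, 10 and 10 were lower and 1, 2 and 2 higher in the egg, Su(var)3-9 and double mutants, with median changes of -0.73, -0.40 and -0.52. Their array medians, each the middle of 15 signals, were 10.92 to 11.50, 10.72 to 11.01 and 10.77 to 10.82, against 12.44 to 12.65 in the control. After centring 9, 6 and 6 muscle markers were lower and 2, 5 and 5 higher, with median changes of -0.51, -0.02 and -0.17. Of all probe sets 14.4%, 12.2% and 12.2% were then called lower and 59.1%, 80.4% and 79.1% higher. Act88F, the flight muscle actin, was at -3.03, -4.09 and -4.80. Of 21 testis markers 20, 20 and 19 were lower, with array medians of 7.27 to 7.47, 4.57 to 5.05 and 5.11 to 6.01 in the 3 mutants, against 9.37 to 9.92 in the control. Of 16 gut markers 11, 16 and 16 were lower, with array medians of 7.54 to 8.30, 5.05 to 7.75 and 5.38 to 6.89 in the 3 mutants, against 11.05 to 11.45 in the control. Under both other scalings the median change of each of the 7 marker lists kept its sign in every mutant, except for head fat body in egg heads, at -0.04 as deposited, 0.19 after centring and -0.38 after loess. The part of these differences in the subunit values was not tested.

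**Figure D5:**
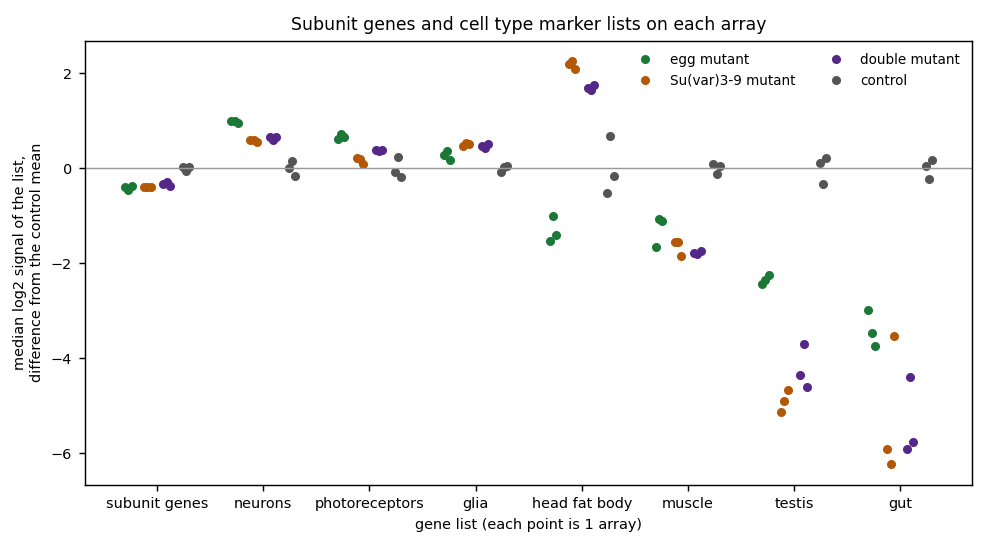
Log2 difference from the control of the 56 subunit genes and of each cell type marker list. Each point is 1 array, coloured by group. Subunit points are the median, over the 56 genes, of each gene's difference from its own control mean. Marker points are the median signal of a list minus the control mean of that median. These measures differ, so distances from the control cannot be compared in size between the subunit genes and the marker lists. Subunit genes in the mutants sit a little below the control, neurons, photoreceptors and glia above it or near it, and muscle, testis and gut below it. The array medians of head fat body markers are below the control in egg heads, where 2 of the 7 markers were higher and 2 lower, and above it in the other mutants, on the deposited scale.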

How the data were processed

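Heads of 4 genotypes were measured on Affymetrix arrays, 12 of them used here, with 3 biological replicates per genotype per the labels; 1 further array, a technical repeat of a control, had an empty column. The deposited log2 values were made by the authors with RMA and limma, per the submitters' processing notes; versions and settings are not given in the sources used here. After 183 control probe sets were left out, 18769 probe sets were fitted with limma 3.58.1 (lmFit and eBayes, all groups together, two-sided, 8 residual degrees of freedom), and p-values were adjusted by Benjamini-Hochberg. A gene was named only from a probe set with a single symbol in GEO's platform annotation (13646 of 18769); 402 had several symbols and 4721 none. All 56 members matched the RefSeq gene table of Release 6, from which chromosomes were taken. On simulated data of 18769 probe sets for egg against control heads, the fit recovered 53% of 100 changes of 0.5 and 90% of 100 changes of 1 (log2). No other probe set was changed there, whereas 9550 passed for this comparison in the data. The adjusted threshold therefore differs, and these rates do not give the sensitivity of the calls above. Genes with values on every array were core subunits, extremes of each contrast and of each complex, genes called against their complex's direction, and paralogs; the core genes ND-49, SdhA, UQCR-C1 and Cyt-c-p of that rule were not analysed here, nor were sequences. Members and lists were chosen with earlier results of these data known. Alternatives were the scaling, a filter on low signal, averaging probe sets per gene, the variance model, the groups fitted, a replicate block and leaving out each array.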

Additional observations from a re-analysis of the deposited data

Results flagged for a closer look

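The effect of the egg mutation differed with and without the Su(var)3-9 mutation (a test of the interaction in limma) for 50 of the 56 genes. All of these were above 0, where 15.8% of all probe sets passed above 0 and 24.9% below. The interaction shares the control arrays with the comparisons against the control. With arrays centred on their medians 23 genes passed above 0 and 2 below, against 12.6% and 51.2% of all probe sets. Among the genes described by name the interaction on the log2 scale was 0.48 for ND-75, 0.37 for SdhB, 0.35 for Cyt-c1, 0.29 for COX4, 0.50 for COX5A, 0.39 for ATPsynbeta and 0.38 for ATPsynC. It was 0.57 for UQCR-11, 0.49 for ND-13B, 0.63 for SdhC and 0.68 for ATPsyndelta. It was 2.45 for COX6AL2, 1.24 for COX7AL2 and 1.83 for ND-B8, the largest values of the 56 genes. Of the ND-51 paralogs ND-51L2 was at 0.61, and ND-51L1, which did not pass, at 0.32. Single arrays far from the others were not tested for in groups of 3.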

How the results depend on the processing

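The scaling of the arrays changed these results more than any other choice tried. With arrays centred on their medians, 32 genes were lower and 3 higher in egg heads and 9 lower and 6 higher in Su(var)3-9 heads. In double mutant heads 7 were lower and 7 higher. Of all probe sets 14.4%, 12.2% and 12.2% were then lower and 59.1%, 80.4% and 79.1% higher. Between the double and egg mutants 25 genes were higher and 1 lower, against 20.1% and 5.22% of all probe sets. Between the egg and Su(var)3-9 mutants 25 were lower and 1 higher, against 35.3% and 8.38%. The interaction had 23 genes above 0 and 2 below, against 12.6% and 51.2%. The double mutant's median turned to 0.02, and these single changes against the control reversed: in egg heads COX4 (0.03); in Su(var)3-9 heads SdhB (0.03), Cyt-c1 (0.09), COX4 (0.20), COX5A (0.01), ATPsynbeta (0.05) and ND-13B (0.07); in double mutant heads ND-75 (0.03), ND-51 (0.11), SdhB (0.15), Cyt-c1 (0.08), COX4 (0.27), COX5A (0.03), ATPsynbeta (0.03) and UQCR-11 (0.02). Under cyclic loess Sdhaf3 (-0.08) and ND-B12 (-0.07) reversed in Su(var)3-9 heads, where 0 genes were higher; 2 were higher between the double and egg mutants and 4 between the egg and Su(var)3-9 mutants. Small counts also moved. Fitting only the groups compared gave 0 genes higher in Su(var)3-9 heads and 2 higher between the double and egg mutants. A variance trend with robust fitting gave 1 higher in double mutant heads, 8 higher between the double and egg mutants, 1 higher between the double and Su(var)3-9 mutants, and 5 lower between the egg and Su(var)3-9 mutants. Leaving out dim probe sets gave 1 higher in double mutant heads, 0 lower between the double and egg mutants and 1 higher between the egg and Su(var)3-9 mutants, and averaging probe sets gave 2 lower between the double and egg mutants. Without 1 array at a time, genes called higher ranged from 0 to 1 in egg heads, 0 to 2 in Su(var)3-9 heads and 0 to 1 in double mutant heads, those between the double and egg mutants from 0 to 5 higher and 0 to 1 lower, those between the egg and Su(var)3-9 mutants from 1 to 2 higher and 0 to 4 lower, and interactions below 0 from 0 to 1. Replicate numbers did not pair the samples: of 18 same-number pairs 1 had a correlation of deviations over 0.1 (range -0.36 to 0.101), and 3 of 12 arrays matched their own number best. With the replicate block 50, 51 and 49 genes were lower in the egg, Su(var)3-9 and double mutants and 1 was higher in Su(var)3-9 heads. The causes of these shifts were not tested. Probe sets of the 7 dim members limit what can be said of them.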
